A study of Mus musculus with 5 samples.

Results

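Growth hormone and prolactin signal through 2 related receptors, and the SOCS family of inhibitors switches both off. The 10 genes described here are the growth hormone receptor gene Ghr, the prolactin receptor gene Prlr, and the 8 SOCS family genes Cish and Socs1 to Socs7. They were found by symbol among the 51912 genes listed in the tables, and all 10 passed the filter on low counts that left 18590 genes for testing.

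Expression was measured by sequencing total RNA extracted from dorsolateral prostates of male mice aged 3 months. The 2 samples labelled Ghr deletion came from mice of genotype Ghrflox/flox;ROSA26Cre-ERT2+/0, in which a tamoxifen-inducible Cre recombinase sits at the broadly active ROSA26 locus. The 3 samples labelled Tamoxifen-control came from Ghrflox/flox mice without Cre. The loxP-flanked Ghr alleles and the tamoxifen, 250 mg/kg daily for 5 days, were shared by both groups, and tissue was collected 1 month after dosing ended. The samples are described as biological replicates, without saying which Ghr exon was flanked or which cells were recombined. Because Cre was present in the deletion samples only, the presence of Cre and a loss of Ghr cannot be told apart.

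Both receptors are single-pass class I cytokine receptors without a kinase of their own. Hormone binding activates the associated kinase JAK2, which phosphorylates the transcription factors STAT5A and STAT5B, and these enter the nucleus and switch on target genes that include Cish and Socs2. The SOCS proteins then bind the receptor or the kinase through an SH2 domain and recruit a ubiquitin ligase through the SOCS box. In the prostate, prolactin signalling through STAT5 is known from mouse work for its effects on epithelial growth.

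Short promoter stretches are shown first, since STAT5 is known to bind a motif of this kind in its targets. The STAT core motif TTCNNNGAA reads the same on both strands, and it was searched in the RefSeq promoter windows of the GRCm38.p6 build, each running from 250 bases before to 50 after an annotated start. Windows were found for 6 of the 10 genes, 9 windows in all, and 3 of these held the motif. Of all 32851 windows in the table, 8.30% held the motif at least once and 0.457% held it more than once. The Cish site lies at chr9:107296654-107296683 on the plus strand, the Socs3 site at chr11:117969501-117969530 on the minus strand and the Prlr site at chr15:10223786-10223815 on the plus strand. The Cish site lies in an exon annotated as 5′ UTR in GENCODE M21, and the other 2 lie within the annotated spans of their genes. They read as follows, 5′ to 3′, with the motif in capitals.
Cish: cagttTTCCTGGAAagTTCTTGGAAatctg
Socs3: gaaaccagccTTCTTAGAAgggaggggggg
Prlr: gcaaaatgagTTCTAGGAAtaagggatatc
Cish held 2 copies separated by 2 bases, the first of them beginning at the annotated start. In Socs3 the motif began 154 bases before the start, and in Prlr it began 110 bases before 1 of 3 annotated starts. No copy was found in the windows of Ghr, Socs1 and Socs4, and a match is only a description of the letters.

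The libraries held 19517831 to 41553558 expected counts. The 7SL RNA genes Rn7s1 and Rn7s2 took 34.3% and 45.6% of TPM in the deletion-labelled libraries and 46.7%, 80.4% and 55.9% in the control libraries (replicates in order, here and throughout). TPM was therefore used for ranks and ratios within a library, and libraries were compared in CPM, which scales counts to TMM-adjusted library sizes. The labelled tissue was checked against its markers. The dorsolateral secretory gene Msmb had 0 and 0.429 CPM in the deletion-labelled libraries, against 11.1, 112 and 0.0441 CPM in the control libraries. Hoxb13, a prostate lineage factor, had 0 and 0.227 CPM, against 0.494, 7.71 and 0 CPM. These defining markers were thus at or near 0 in deletion replicate 1 and control replicate 3, and under 1 CPM in deletion replicate 2. The seminal vesicle gene Svs1 had 0.0454 and 7.90 CPM in the deletion-labelled libraries, against 32915, 22520 and 58.6 CPM in the control libraries. The list was not uniform: the seminal vesicle genes Svs2, at 67744 and 118601 CPM against 68572, 47338 and 140510 CPM, and Pate4, at 20932 and 30450 CPM against 21112, 10520 and 33092 CPM, were highest in control replicate 3. Control replicates 1 and 2 stood apart from control replicate 3 in Msmb and Svs1. In Hoxb13 only control replicate 2 did so clearly, since control replicate 1 was also under 1 CPM. The values that rest on control replicates 1 and 2 are given below without them as well, as a setting chosen after seeing the data. In bulk tissue, fewer cells of a type and less RNA per cell cannot be told apart.

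No member passed the test between the groups. By edgeR's quasi-likelihood test with Benjamini-Hochberg adjustment over all 18590 genes, 0 of the 10 genes were called, and 0 had an unadjusted p under 0.05. The background was 0% of all genes called higher, 0% called lower and 4.26% at an unadjusted p under 0.05. DESeq2 also called 0 of the 10 genes, against 0.401% of the genes it gave an adjusted p. The fitted log2 fold change was positive for 6 members and negative for 4, with a median of 0.05 beside -0.0063 over all genes tested. Adjusted p-values of the members ran from 0.874 to 0.989, and all 10 confidence intervals held no change.

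Ghr, the gene named in the deletion label, did not pass the test, and its mean was not lower under that label. Ghr (ENSMUSG00000055737, GRCm38 chromosome 15, 3317760 to 3583492, minus strand) had 21.5 and 10.2 CPM in the deletion-labelled libraries, from 947 and 405 expected counts. In the control libraries it had 10.1, 11.8 and 13.2 CPM, from 164, 230 and 597 expected counts. Deletion replicate 1 was the highest of the 5, and deletion replicate 2 lay within the control range. The fold over controls was 1.35 (95% confidence interval 0.746 to 2.46, or 0.44 on the log2 scale with SE 0.35), with an adjusted p of 0.874 by edgeR. Without deletion replicate 1 the log2 fold change was -0.20, and without deletion replicate 2 it was 0.88. The count covers every exon of the gene together, so a transcript that lacks only a flanked exon would still be counted. Counts by exon were not examined, and whether such a transcript was present was not tested. Every direction below is therefore that of the label, not of a measured loss of receptor.

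Prlr stood far above the rest of the group on the per-length scale. It ranked between the 93.6 and 96.9 percentiles of TPM among the 14693 tested protein-coding genes of each library, and first among the 10 genes in all 5 libraries. Within a library its TPM level was 9.93 and 13.6 times that of Ghr in the deletion-labelled libraries, and 23.8, 16.3 and 9.36 times in the control libraries. Socs6 came next, with percentiles from 60.2 to 62.8, and its range overlapped those of Socs7 (51.9 to 62.0) and Socs2 (44.8 to 78.2). Socs4 (40.9 to 59.8), Ghr (38.5 to 56.4), Cish (33.2 to 55.9) and Socs5 (39.5 to 44.1) lay in the middle, and their ranges overlapped one another. The cytokine-induced inhibitors Socs3 (11.4 to 16.3) and Socs1 (5.78 to 15.3) were lowest in every library, with ranges that overlapped each other and no other member.

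**Figure D1:**
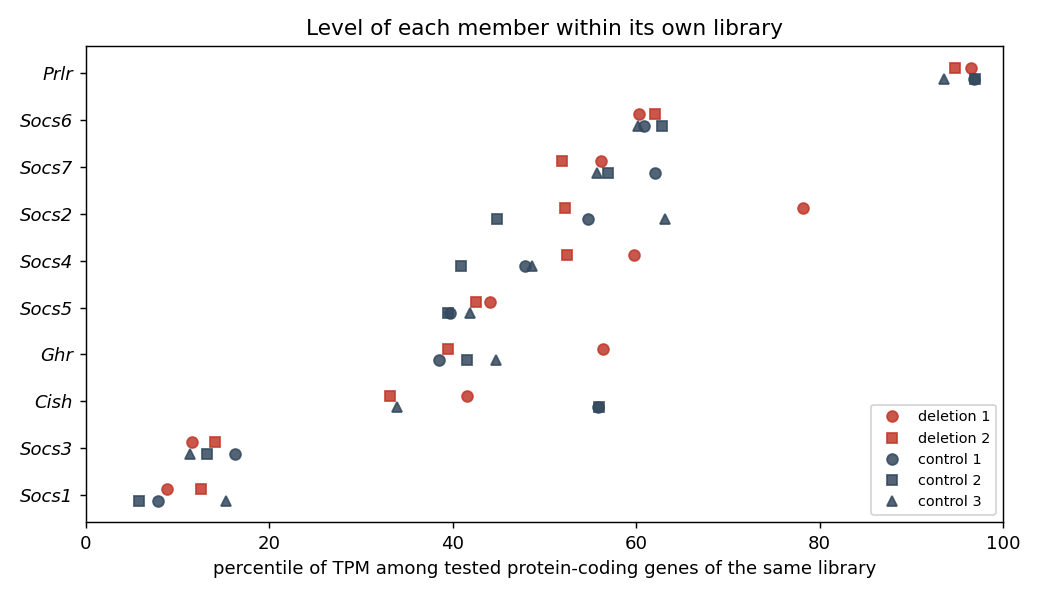
Percentile of TPM (x axis, 0 to 100) of each of the 10 genes among the tested protein-coding genes of the same library, with 1 point per library, deletion-labelled in red above control in dark blue. Prlr lies above 93 in all 5 libraries, and Socs1 and Socs3 lie below 17 in all of them.

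Prlr did not differ between the groups beyond the spread within them. Prlr (ENSMUSG00000005268, chromosome 15, 10177238 to 10349180, plus strand) had 424 and 297 CPM in the deletion-labelled libraries, against 474, 330 and 262 CPM in the control libraries. The highest and the lowest of the 5 values were both controls. Its fold was 1.02 (95% interval 0.559 to 1.84, adjusted p = 0.989 by edgeR). Its direction was not fixed by these libraries: the log2 fold change was 0.02, with values from -0.26 to 0.28 when 1 library was left out.

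**Figure D2:**
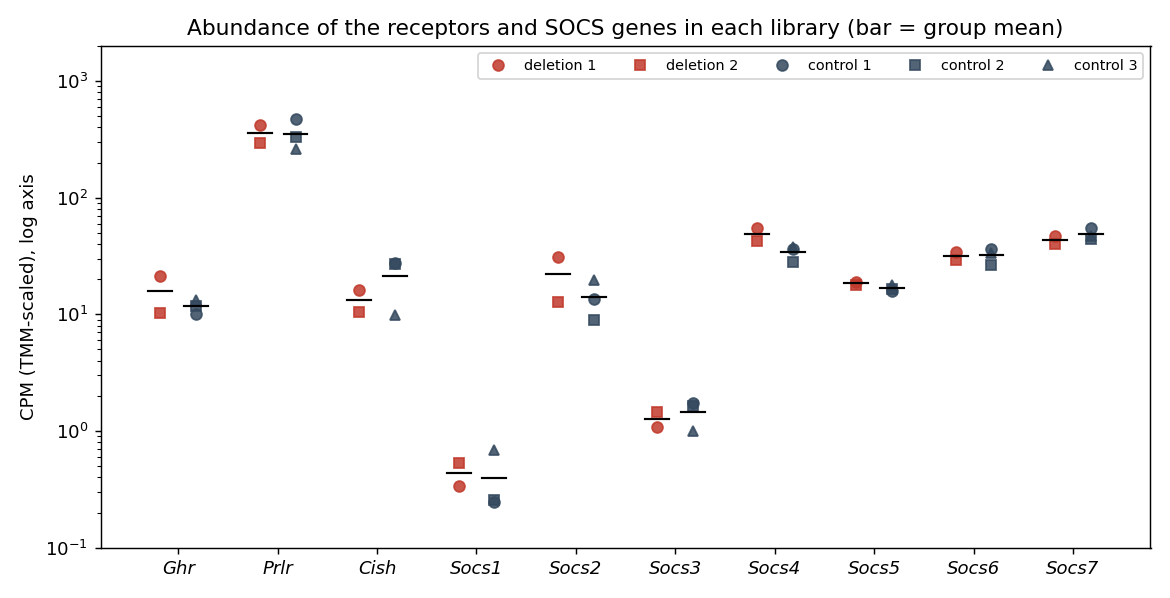
CPM of each gene on a log axis, with 1 point per library, deletion-labelled in red on the left of each pair and control in dark blue on the right; horizontal bars mark group means. Socs4 and Socs5 are the genes whose deletion-labelled points both lie above every control point, and Cish shows control replicate 3 far below the other controls.

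Socs2, which inhibits growth hormone signalling and whose loss makes mice grow large, varied most among the 10 genes. Socs2 (ENSMUSG00000020027, chromosome 10, 95385362 to 95417180) had 31.2 and 12.8 CPM in the deletion-labelled libraries, against 13.5, 8.94 and 19.7 CPM in the control libraries. Deletion replicate 1 was highest and deletion replicate 2 lay inside the control range, as for Ghr. The highest library held 3.49 times the lowest. The fold was 1.56 (95% interval 0.689 to 3.54, adjusted p = 0.874 by edgeR). Its log2 fold change of 0.64 was -0.14 without deletion replicate 1 and 1.15 without deletion replicate 2. Without control replicates 1 and 2 it was 0.16 (adjusted p = 1.00 by edgeR).

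Ratios to Ghr were taken within each library, where the scaling of the library cancels. On the TPM scale that of Socs2 was 2.29 and 1.69 in the deletion-labelled libraries, against 1.97, 1.14 and 1.96 in the control libraries. The mean log2 ratio was 0.97 ± 0.31 (SD, n = 2) in the deletion-labelled libraries and 0.71 ± 0.45 (SD, n = 3) in the control libraries. The difference of 0.26 gave p = 0.800 in a two-sided exact permutation test, which cannot go below 0.2 with these group sizes. The log2 ratio of Prlr to Ghr was 3.54 ± 0.32 in the deletion-labelled and 3.94 ± 0.68 in the control libraries (exact p = 0.600). The log2 ratio of Cish to Ghr was -0.65 ± 0.26 in the deletion-labelled and 0.36 ± 0.97 in the control libraries (exact p = 0.400). Without control replicates 1 and 2, the differences in log2 ratio were -0.00043 for Socs2, 0.31 for Prlr and 0.10 for Cish, each with its sign turned. All 3 ratios had p = 0.800 after Benjamini-Hochberg adjustment of the exact permutation tests.

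The summed fibroblast, myeloid and endothelial markers were also highest in deletion replicate 1. The 8 fibroblast markers, all detected in every library, summed to 3287 and 1445 CPM in the deletion-labelled libraries, against 1443, 939 and 2610 CPM in the control libraries. Within that list Dpt and Fbln1 were highest in control replicate 1 and Col1a1 in control replicate 3. The 8 myeloid markers summed to 162 and 74.7 CPM, against 109, 54.5 and 84.7 CPM, and only S100a8 was at 0 in any library, in all 3 controls. Of the myeloid markers, Cd68 was highest in control replicate 1 and Itgam, narrowly, in control replicate 3. The 6 endothelial markers summed to 148 and 95.2 CPM, against 119, 76.9 and 106 CPM. The 8 adipocyte markers summed to 25.0 and 14.4 CPM with none at 0, against 11.6, 21.1 and 17.6 CPM with 5, 3 and 1 of them at 0. Lipe, a lipase gene, made up 9.10 and 9.51 CPM of these sums, against 9.26, 19.9 and 15.1 CPM. The other 6 of the 7 adipocyte markers tested were higher in both deletion-labelled libraries than in every control, as were 10.8% of all genes tested. Some of these rested on few reads: Lep had 12 and 22 counts in the deletion-labelled libraries, and Plin1 38 and 13. For Fabp4 the gap was narrow, with 1.94 CPM in deletion replicate 2 against 1.91 CPM in control replicate 1. Adipoq, which defines fat cells, had 1.23 and 0.328 CPM, against 0, 0.103 and 0.110 CPM. The part of these cell types in the Ghr and Socs2 values was not tested.

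Cish, a STAT5 target whose protein CIS competes at receptor docking sites, split the control group. Cish (ENSMUSG00000032578, chromosome 9, 107296026 to 107302784) had 16.3 and 10.5 CPM in the deletion-labelled libraries, against 27.7, 26.9 and 9.88 CPM in the control libraries. Control replicates 1 and 2 were high and close to each other, and control replicate 3 was the lowest of the 5. The fold was 0.626 (95% interval 0.269 to 1.46, or -0.68 on the log2 scale with SE 0.50), with an adjusted p of 0.874 by edgeR. With control replicates 1 and 2 both left out, a setting in which the 1 control left is assumed to vary like the other group, the log2 fold change was 0.45 (adjusted p = 1.00 by edgeR). Without control replicate 3 it was -1.03 (adjusted p = 0.244 by edgeR).

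The transcripts of STAT5 were also highest in control replicates 1 and 2, though these 2 were not close to each other for Stat5a. Stat5a had 62.5 and 47.8 CPM in the deletion-labelled libraries, against 89.0, 194 and 61.6 CPM in the control libraries. Stat5b had 58.9 and 45.3 CPM, against 105, 128 and 58.5 CPM. For both, control replicate 3 lay between the deletion-labelled libraries. Without control replicates 1 and 2 the log2 fold change was -0.15 for Stat5a and -0.16 for Stat5b, against -1.06 and -0.90 with all controls. The 10 luminal prostate markers, summed, were at 765 and 761 CPM in the deletion-labelled libraries, against 3620, 3669 and 654 CPM in the control libraries, with 3 and 0 of them at 0 against 0, 0 and 2. Spink1, a secreted protease inhibitor, made up 2937 CPM of that sum in control replicate 1. The 8 seminal vesicle markers, all above 0 in every library, summed to 104999 and 183272 CPM, against 451761, 234412 and 234784 CPM. The part of these tissues in the Cish, Stat5a and Stat5b values was not tested, nor was a link between these genes.

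**Figure D3:**
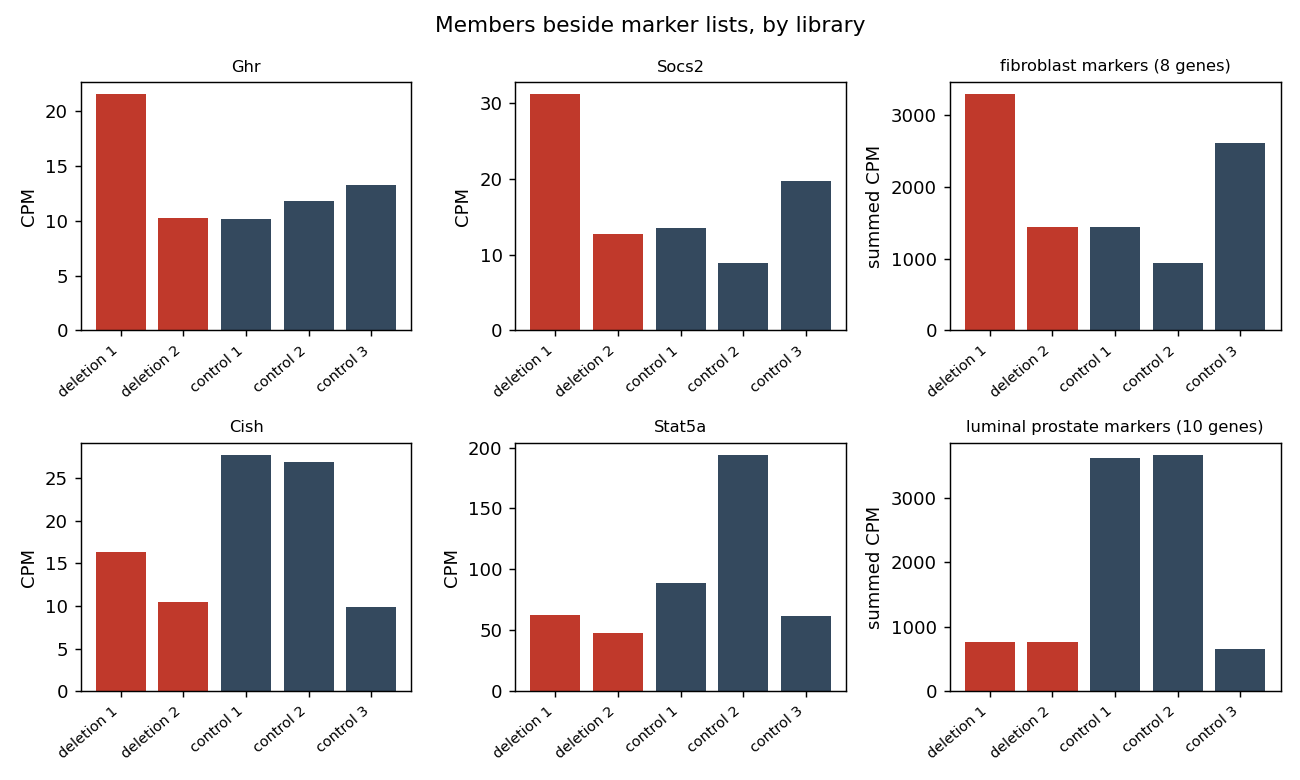
CPM of Ghr, Socs2, Cish and Stat5a and summed CPM of the fibroblast and luminal prostate marker lists, each on a linear axis from 0, with 1 bar per library (deletion-labelled red, control dark blue). Deletion replicate 1 is highest for Ghr, Socs2 and the fibroblast markers, and control replicates 1 and 2 are highest for Cish, Stat5a and the luminal markers.

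Socs4 and Socs5, close relatives whose best known target in cell culture is the EGF receptor, were higher in both deletion-labelled libraries than in every control. Socs4 (ENSMUSG00000048379, chromosome 14, 47276931 to 47296102) had 54.7 and 42.2 CPM in the deletion-labelled libraries, against 36.4, 28.3 and 37.5 CPM in the control libraries. Its fold of 1.42 (95% interval 0.971 to 2.08) came with the smallest unadjusted p of the group, 0.0643 by edgeR's quasi-likelihood test, and an adjusted p of 0.874. Socs5 (ENSMUSG00000037104, chromosome 17, 87107679 to 87137839) had 19.0 and 17.9 CPM, against 15.9, 16.6 and 17.7 CPM. Its 5 values ran from 15.9 to 19.0 CPM, and the fold was 1.10 (95% interval 0.813 to 1.49, adjusted p = 0.888 by edgeR). Groups that do not overlap in this direction were seen for 2 of the 10 members and for 10.8% of all genes tested. In the lower direction they were seen for 0 of the 10 members and for 12.5% of all genes.

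Socs6 and Socs7, which bind insulin receptor substrates and other signalling proteins, were near level across the libraries. Socs6 (ENSMUSG00000056153, chromosome 18, 88665224 to 88927481) had 34.0 and 29.5 CPM in the deletion-labelled libraries, against 36.5, 26.4 and 33.8 CPM in the control libraries. Its fold was 0.985, with a 95% interval of 0.679 to 1.43. Socs7 (ENSMUSG00000038485, chromosome 11, 97362551 to 97398542) had 46.7 and 40.3 CPM, against 54.5, 44.5 and 46.8 CPM, with a fold of 0.895 and a 95% interval of 0.644 to 1.24. The interval of Socs6 holds the fold of 1.42 given above for Socs4, and that of Socs7 does not.

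Socs1 and Socs3, the inhibitors that interferon and interleukin-6 type cytokines induce, were close to the limit of detection. Socs1 (ENSMUSG00000038037, chromosome 16, 10782240 to 10785536) rested on 15 and 21 expected counts in the deletion-labelled libraries, and on 4, 5 and 31 in the control libraries. These are 0.340 and 0.530 CPM, against 0.247, 0.257 and 0.684 CPM, and the 95% interval of the fold ran from 0.334 to 3.31. Socs3 (ENSMUSG00000053113, chromosome 11, 117966079 to 117970047) rested on 48 and 58 counts, against 28, 32 and 45. It had 1.09 and 1.46 CPM, against 1.73, 1.64 and 0.992 CPM, with a 95% interval of 0.412 to 1.89 for the fold. For both genes control replicate 3 lay at one end of the control values, highest for Socs1 and lowest for Socs3.

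**Figure D4:**
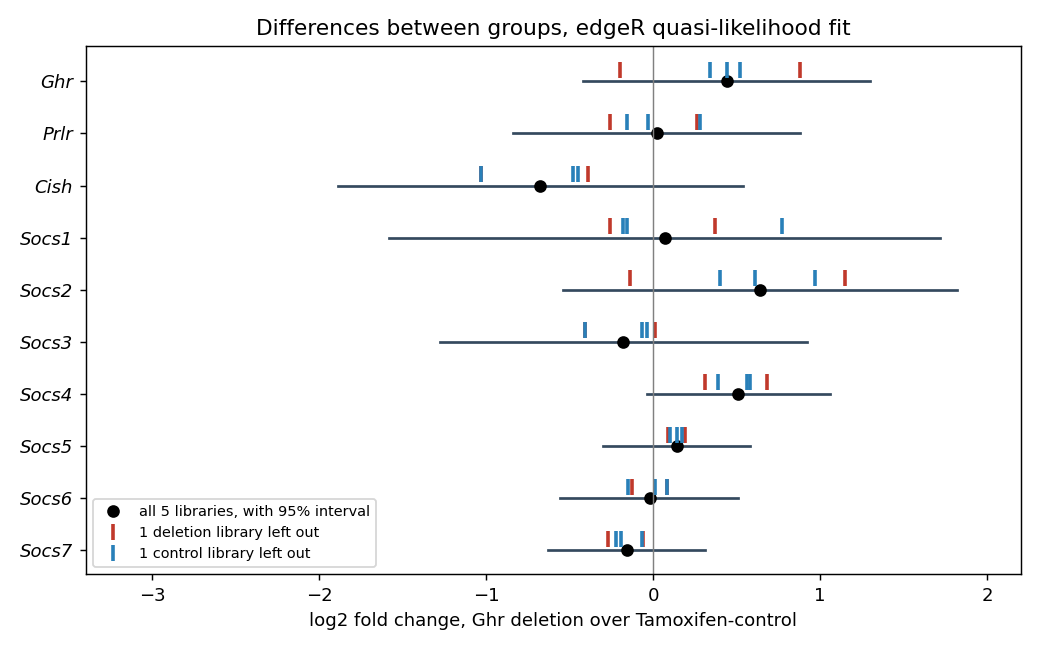
Fitted log2 fold change of each gene, deletion-labelled over control (black point), with its 95% confidence interval (line); red ticks give the value with 1 deletion library left out and blue ticks with 1 control library left out. Every interval holds 0, and the red ticks of Ghr and Socs2 fall on both sides of 0.

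Isoform use was read from the deposited transcript length, a mean over the isoforms of a gene weighted by their estimated abundance. Ghr makes both the receptor and a shorter soluble binding protein by alternative splicing in mice, and Prlr makes long and short receptors that differ in their inner tails. The length of Ghr was 3177 and 2951 bases in the deletion-labelled libraries, against 3053, 2914 and 2956 bases in the control libraries, and the groups overlapped (exact permutation p = 0.600). That of Prlr was 6087 and 6067 bases, against 5778, 4857 and 6041 bases. That of Cish was 4225 and 4094 bases, against 4019, 3724 and 3678 bases, and that of Socs7 was 6687 and 6682 bases, against 6212, 5847 and 6660 bases. For Prlr, Cish and Socs7 both deletion-labelled values were above every control, by 518, 353 and 445 bases on average. These are 3 of the 6 members compared, and the same was seen for 9.92% of the 11150 tested genes with at least 10 counts in every library and more than 1 length. Without control replicate 2 the difference was 168 bases for Prlr and 248 for Socs7, and without control replicates 1 and 2 it was 36 bases for Prlr, 25 for Socs7 and 482 for Cish. With all 5 libraries each of the 3 gave p = 0.2, the smallest that the exact permutation test allows here, and 0.400 after adjustment over the 6 genes compared. For Prlr and Socs7 the gap to control replicate 3 was small, and control replicate 2, the library with 80.4% of TPM in 7SL RNA, was shortest. The part of that library's make-up in these lengths was not tested. Socs2 and Socs6 overlapped (exact permutation p = 1.00 for both), Socs3, Socs4 and Socs5 had 1 length in every library, and Socs1 had under 10 counts in some libraries and was not compared.

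**Figure D5:**
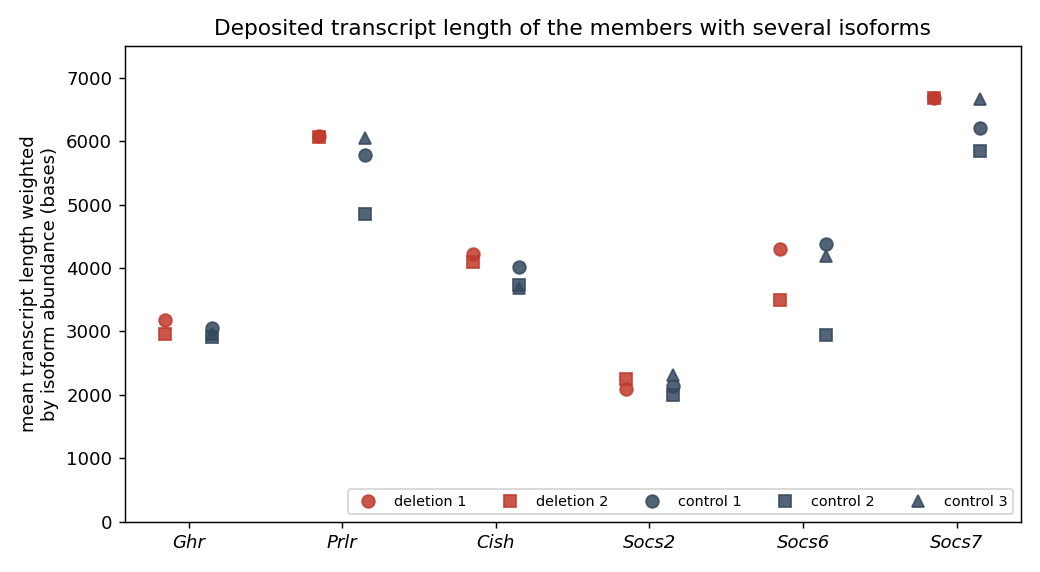
Mean transcript length in bases, weighted by isoform abundance as deposited, for the 6 genes whose length varied, with 1 point per library, deletion-labelled in red on the left and control in dark blue. Both deletion-labelled points lie above every control for Prlr, Cish and Socs7, by a narrow margin over control replicate 3 for Prlr and Socs7, and control replicate 2 is shortest for 5 of the 6 genes.

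The rest of the pathway was examined in 8 lists of 57 genes, of which 49 were tested. None passed edgeR's quasi-likelihood test over all genes, 1 had an unadjusted p under 0.05, and DESeq2 called 0. Their median log2 fold change was -0.02 beside -0.0063 for all genes tested. The groups did not overlap for 4 genes on the higher side and 8 on the lower side, of 49 tested. Over all genes tested these shares were 10.8% and 12.5%. The hormone genes Gh and Prl had 0 counts in all 5 libraries.

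Among the kinases, Jak2, which both receptors use, had 97.6 and 88.1 CPM in the deletion-labelled libraries, against 75.4, 60.6 and 101 CPM in the control libraries. Tyk2, a kinase of interferon receptors, had 19.1 and 21.0 CPM, against 24.8, 46.2 and 23.3 CPM, a log2 fold change of -0.65 (SE 0.35). Jak3, a lymphocyte kinase, had -0.73 (SE 0.70). Of 7 STAT genes 1 had a positive value, and Stat5a (-1.06, SE 0.52) and Stat5b (-0.90, SE 0.37) had the smallest p in that list. Irs1, an insulin receptor substrate, had -0.91 (SE 0.56) and Sh2b1, a JAK2 adaptor, had -0.61 (SE 0.40). Without control replicates 1 and 2, Irs1 was at 0.31, Jak3 at 0.27, Jak2 at -0.12, Tyk2 at -0.21 and Sh2b1 at -0.32. With all libraries, all of these had an adjusted p of at least 0.874 by edgeR.

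Igf1, the growth factor that growth hormone induces, had 89.8 and 43.8 CPM in the deletion-labelled libraries, against 61.2, 20.7 and 58.9 CPM in the control libraries (log2 fold change 0.51, SE 0.54). Deletion replicate 1 was again the highest, and without it the value was -0.10. Of the other STAT5 targets, the repressor Bcl6 had a fitted change of 0.19 (SE 0.19) on the log2 scale and the survival gene Bcl2l1 had -0.26 (SE 0.20). The elongin gene Elob, a subunit of the ligase that the SOCS box recruits, was the pathway gene at an unadjusted p under 0.05. Elob had 11.5 and 12.4 CPM in the deletion-labelled libraries, against 22.2, 27.4 and 17.0 CPM in the control libraries, or -0.89 on the log2 scale (SE 0.26). Its unadjusted p was 0.0146 and its adjusted p 0.874 by edgeR's quasi-likelihood test across all genes. It was -0.50 with control replicates 1 and 2 left out. Its partner Rnf7 had 0.54 (SE 0.44), and -0.09 without those controls.

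On the cytokine side, Osmr, the oncostatin M receptor, had 17.8 and 13.2 CPM in the deletion-labelled libraries, against 9.04 to 12.4 CPM in the 3 control libraries (log2 fold change 0.56, SE 0.25). Lepr, the leptin receptor, had 20.7 and 12.9 CPM, against 6.48, 5.96 and 13.4 CPM (0.95, SE 0.43). The groups overlapped for Lepr and not for Osmr, and the adjusted p was 0.874 for both by edgeR. The log2 fold change was 0.33 for each with control replicates 1 and 2 left out. Of the PIAS inhibitors of STATs, Pias4 had -0.55 (SE 0.32) and Pias3 had -0.38 (SE 0.32).

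The genes whose pattern over the 5 libraries lay nearest to that of Ghr were Pask, Fuca1, Col6a1, Phactr1 and Il18bp. Nearness was the Euclidean distance between centred log2(CPM + 0.5) values over 10363 protein-coding genes with a mean of at least 5 CPM. The distance was 0.24 for Pask, a metabolic kinase, and 0.26 for Col6a1, a collagen chain with 310 and 142 CPM in the deletion-labelled libraries, against 152, 150 and 213 CPM in the control libraries. The genes nearest to Socs2 were Wnt5a, Kntc1, Brca1, Fam111a and Cyyr1. Wnt5a, a secreted signalling protein, lay at a distance of 0.12, with 76.2 and 33.8 CPM in the deletion-labelled libraries, against 35.1, 22.1 and 46.6 CPM in the control libraries. No other member was among the 5 nearest to either gene: Socs2 ranked 1003 for Ghr, and Ghr ranked 299 for Socs2. With 5 libraries, such a distance is a description of shape only.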

How the data were processed

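Sample titles gave each library its group and replicate number. Per the labels' protocols, RNA from flash-frozen tissue was made into stranded total RNA libraries. Build GRCm38, the aligner STAR 2.5.3a, the counter RSEM 1.3.0 and bcl2fastq 2.20.422 are listed in the submitters' processing notes. Which annotation and strand option were used is not given in the sources used here. Deposited by the authors were expected counts, in which RSEM shares out reads that fit several genes, and TPM, scaled per effective length and library, and a mean transcript length per gene and library. Symbols matched 99.5% of identifiers, and coordinates are from GENCODE M21 on GRCm38. Of annotated genes that overlap a member, Gm17040 lies opposite Cish and had at most 7 counts.

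Expected counts were rounded, filtered with filterByExpr, scaled by TMM and tested by group alone with edgeR 4.0.16 (R 4.3.3). An adjusted p under 0.05 was a call. The SE of a log2 fold change came from its F statistic. Ratios and lengths were compared by exact permutation over samples. No sample was left out. The edgeR p-values weigh the difference between groups against the spread of the samples within them. The exact permutation p-values set that difference against those of all splits of these 5 samples. The fit was tested on simulated data. Alternatives used other scalings and filters, DESeq2 1.42.0, limma 3.58.1 on TPM, a replicate block and left-out libraries.

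The members and lists were chosen with earlier results of these data known. Named beyond the members were Jak2, Stat5a, Stat5b, Igf1, the 2 genes of each pathway list with the smallest p, and the 5 genes nearest to Ghr and to Socs2. Marker genes were named after their values were seen.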

Additional observations from a re-analysis of the deposited data

How the results depend on the processing

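None of the 10 members was called under any setting run, and their adjusted p was never below 0.0613 (Socs2, limma-trend on log2(TPM + 1)). Over all genes, against 0 higher and 0 lower in the fit described above, calls numbered 2 and 0 with no filter on low counts, 20 and 59 with DESeq2, 2234 and 60 on log2(TPM + 1), 686 and 47 on log2(TPM + 0.1), and 0 to 15 and 0 to 33 with 1 library left out, the highest without control replicate 3. On TPM the median change over all genes was 0.87 and 1.3 (log2) with these pseudocounts, and 0.58 by library size only, so members are given relative to it. The p-values and calls under these settings belong to the change before that median was taken off. They therefore include the shift shared by all genes. Ghr ran from -0.20 to 0.88 with 1 library left out and was 0.27 to 0.47 otherwise. Directions turned for members near 0, and also for Ghr and Socs2 without deletion replicate 1 and for Cish without control replicates 1 and 2. Socs1 was -0.06 by library size, -0.60 and -0.28 on the TPM scales, -0.65 without control replicates 1 and 2 and -0.26 to 0.77 with 1 library left out. Socs6 was 0.01 with no filter, 0.29 and 0.06 on TPM and -0.15 to 0.08 with 1 library left out, and Socs7 was 0.08 on log2(TPM + 1). Prlr ran from -0.26 to 0.28, Socs2 from -0.14 to 1.15 and Socs3 from -0.41 to 0.01 with 1 library left out. Without control replicates 1 and 2, Cish was 0.45, Socs3 0.36, Jak2 -0.12, Jak3 0.27, Irs1 0.31 and Rnf7 -0.09; the log2 ratios to Ghr differed by 0.31 (Prlr), -0.00043 (Socs2) and 0.10 (Cish), and lengths by -137 bases (Socs2), -287 (Socs6) and 25 (Socs7). With 1 library left out, the ratio differences ran from -0.76 to -0.09 for Prlr, -0.00079 to 0.48 for Socs2 and -1.57 to -0.68 for Cish, Jak3 from -1.08 to 0.16 and Igf1 from -0.10 to 0.93. Length differences then ran from -23 to 203 bases for Ghr, 168 to 760 for Prlr, 287 to 459 for Cish, -49 to 109 for Socs2, -385 to 462 for Socs6 and 248 to 655 for Socs7. On log2(TPM + 1), Bcl2l1 was 0.23, Pias3 0.11, Pias4 0.07 and Lepr 0.44. Lepr was called there, with an adjusted p of 0.0431 by limma for its change before the median was taken off. The causes were not tested.

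The replicate numbers are not stated to pair samples; same-numbered libraries deviated together with correlations of 0.28 and 0.30 over 2 pairs, which are linked because the deletion group has only 2 libraries. With the replicate block, which leaves 1 residual degree of freedom, 552 genes were called higher, 574 lower and 0 members; Prlr was -0.16, Socs6 0.03 and Cish -1.06 (adjusted p = 0.0626 by edgeR). Of the named pathway genes, Stat5b (-1.17), Irs1 (-1.21) and Lepr (1.39) were called with the block. Only the control group has a replicate 3, so with the block control replicate 3 does not bear on the difference between groups. With no block and that library left out, Stat5b was -1.17, Irs1 -1.28 and Lepr 1.43, and none of these was called. Depth limits Socs1 most, with 4 to 31 counts.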
